A study of Mus musculus with 12 samples.

Results

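The RNA levels of 10 germline genes, Dazl, Ddx4, Sycp3, Sycp1, Mael, Tex19.1, Tex101, Tdrd1, Dpep3 and Stk31, were followed in mouse embryonic stem cells (ESCs) with and without Cdk8 and with and without induced Xist. The genes were picked by name as germline genes whose promoters are known as targets of DNA methylation, and each was found once among the 25759 genes in the 12 RNA-seq libraries. The cells were of the HATX3 line, diploid ESCs of haploid embryo origin. In this line doxycycline switches on the endogenous Xist gene through a tetO promoter and an nls-rtTA transactivator at Rosa26. The 4 groups of 3 libraries were uninduced wild type (NT, replicates 1, 2 and 3), wild type after 48 h of doxycycline (Dox, the same numbers), uninduced ΔCdk8 clones 8, 11 and 15, and the same 3 clones after 48 h of doxycycline. All 4 groups carry the inducible Xist system. The ΔCdk8 clones have a homozygous small deletion around the start codon made with Cas9, and each is a single clone, whereas the wild type is the parental line and not a single clone. By the study's account parental cultures may hold some differentiated cells. Nothing in the labels says that the wild-type replicates were separate cultures, so p-values measure the spread between these samples, which may be technical. DNA methylation itself was not measured in these libraries.

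In the embryo the promoters of many germline genes gain DNA methylation around implantation, laid down by Dnmt3a and Dnmt3b, copied by Dnmt1 with Uhrf1, and lost again in primordial germ cells. Before that, and in ESCs, repressors such as the E2f6 and Mga complexes, Setdb1 and the G9a complex also hold many of these genes down. The genes serve different steps of germ cell life. Sycp1 and Sycp3 build the synaptonemal complex that joins homologous chromosomes in meiosis. Dazl binds RNA and promotes translation in germ cells, and Ddx4 is the germ cell RNA helicase known as Vasa. Mael and Tdrd1 act in the piRNA pathway, which silences transposons, Stk31 is a Tudor-domain protein of the testis, and Tex19.1 limits retrotransposons in germ cells and is also known in pluripotent cells and placenta. Tex101 and Dpep3 are surface proteins of male germ cells.

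CpG dinucleotides are the sites of this methylation, and the promoters of the germline genes were rich in them. RefSeq promoter windows on GRCm38.p6, which run from 250 bases before to 50 after the annotated start, held 12 to 38 CpG in the 10 genes, with a median of 20.5. The median was 7 over all 32851 windows and 22 over 9477 genes with a mean level of at least 1 TPM, so the germline genes lay near the middle of the expressed genes. For expressed and late spermatid genes the window of most CpG per gene was taken, here and for the motif shares below. For the 10 germline genes it was the window nearest the annotated gene start, so the choice of window was unlike. Ddx4 held the most, 38 CpG in a window of 72.0% G and C, and Dpep3 the fewest, 12. Late spermatid genes such as the protamines, which are germline genes of another class, had a median of 2 CpG (9 genes). The 150 bases before the start are printed for 6 genes, chosen after their values were seen: 5 whose levels did not overlap between genotypes in at least 1 state, and Tex19.1, whose levels overlapped in both states. Capitals mark CpG dinucleotides, and each run is written 5′ to 3′ on the strand of its gene.
Dazl, chr17:50293621-50293770, minus strand: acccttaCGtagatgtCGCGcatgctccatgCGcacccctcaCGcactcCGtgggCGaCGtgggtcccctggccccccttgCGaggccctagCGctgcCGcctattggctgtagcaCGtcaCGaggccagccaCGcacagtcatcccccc
Ddx4, chr13:112652311-112652460, minus strand: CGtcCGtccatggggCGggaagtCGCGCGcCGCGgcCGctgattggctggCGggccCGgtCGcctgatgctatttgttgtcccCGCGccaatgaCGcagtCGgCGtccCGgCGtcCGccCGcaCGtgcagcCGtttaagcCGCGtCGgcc
Sycp3, chr10:88459437-88459586, plus strand: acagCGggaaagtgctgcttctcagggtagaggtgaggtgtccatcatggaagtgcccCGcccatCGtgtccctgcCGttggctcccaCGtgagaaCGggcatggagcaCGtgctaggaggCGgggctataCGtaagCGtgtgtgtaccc
Mael, chr1:166238745-166238894, minus strand: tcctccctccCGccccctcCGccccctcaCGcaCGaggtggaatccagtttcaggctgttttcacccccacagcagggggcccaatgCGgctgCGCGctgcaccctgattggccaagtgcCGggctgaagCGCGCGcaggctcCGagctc
Tex19.1, chr11:121145993-121146142, plus strand: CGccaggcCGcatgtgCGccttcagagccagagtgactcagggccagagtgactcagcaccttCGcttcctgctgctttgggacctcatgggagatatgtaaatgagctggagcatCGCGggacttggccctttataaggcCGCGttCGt
Tex101, chr7:24672051-24672200, minus strand: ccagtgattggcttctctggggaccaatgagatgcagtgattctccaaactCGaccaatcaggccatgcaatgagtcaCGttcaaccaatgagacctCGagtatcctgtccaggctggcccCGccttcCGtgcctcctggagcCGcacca

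Ddx4 carried 26 CpG in these 150 bases, Dazl 14, Mael 12, Sycp3 10, Tex19.1 9 and Tex101 6. For Tex101 the RefSeq start lies 4625 bases from the gene start of the deposited tables, so its window may not be the promoter of the transcript counted. The letters TCCCGC, searched on both strands as the core of an E2F site, were in the promoter windows of 5 of the 10 genes (Ddx4, Sycp3, Sycp1, Mael and Tex19.1), against 19.98% of all windows and 39.3% of those of expressed genes. The letters CACGTG, an E-box that reads the same on both strands and is bound by factors such as Mga with Max, were in 6 of 10 (Ddx4, Sycp3, Sycp1, Mael, Tdrd1 and Stk31), against 7.15% and 10.9%. Both motifs contain a CpG, so they are more frequent in CpG-rich windows. In Ddx4 the TCCCGC letters start 136 bases and the CACGTG letters 29 bases before the start; in Sycp3 the positions are 147 for TCCCGC and 64 and 43 for CACGTG. Dazl, Tex101 and Dpep3 held neither. A match describes the letters alone.

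**Figure D1:**
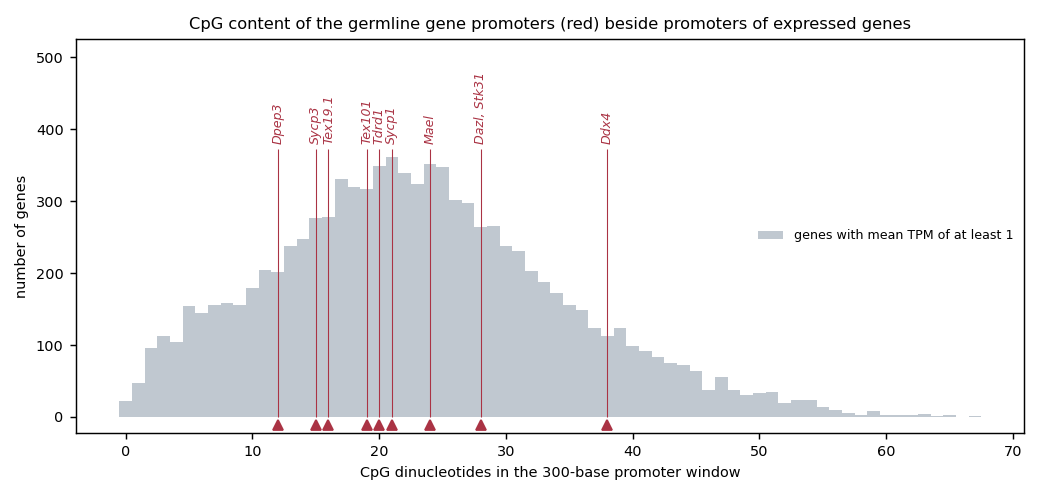
Histogram of the number of CpG dinucleotides in the RefSeq promoter window (x axis, count per window) over genes with a mean of at least 1 TPM (y axis, number of genes), with each germline gene marked by a red triangle, line and name. The histogram takes the window of most CpG of each gene, and the marks take the window nearest the annotated gene start. The marks run from 12 (Dpep3) to 38 (Ddx4), and 8 of the 10 lie between 15 and 28.

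The libraries held 22170087 to 60798578 reads assigned to genes. Levels are given in TPM, a unit that corrects for gene length and library size and so allows levels of different genes to be compared. In bulk RNA, fewer cells making a transcript cannot be told apart from less of it in each cell. Cdk8 RNA was present in every library, with 64.2, 69.4 and 74.2 TPM in uninduced wild type and 34.4, 56.8 and 85.3 in uninduced clones 8, 11 and 15. Reads from outside a small deletion at the start codon do not check the labels. The 10 genes are protein-coding and lie on 10 different autosomes, Mael on chromosome 1, Sycp1 on 3, Stk31 on 6, Tex101 on 7, Dpep3 on 8, Sycp3 on 10, Tex19.1 on 11, Ddx4 on 13, Dazl on 17 and Tdrd1 on 19 (GRCm38). All 10 germline genes were detected in all 12 libraries. In uninduced wild type the mean level ran from 34.2 TPM for Tex19.1 through 14.3 for Sycp3, 14.1 for Ddx4, 8.39 for Stk31, 6.02 for Mael and for Sycp1, 3.04 for Dazl, 2.47 for Tdrd1 and 0.539 for Tex101 to 0.134 for Dpep3. Neighbours in this order had separate ranges at 4 steps, Tex19.1 to Sycp3, Sycp1 to Dazl, Tdrd1 to Tex101 and Tex101 to Dpep3; the other neighbours overlapped. The mRNAs were therefore present before any perturbation, and none of the 10 was at 0.

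**Figure D2:**
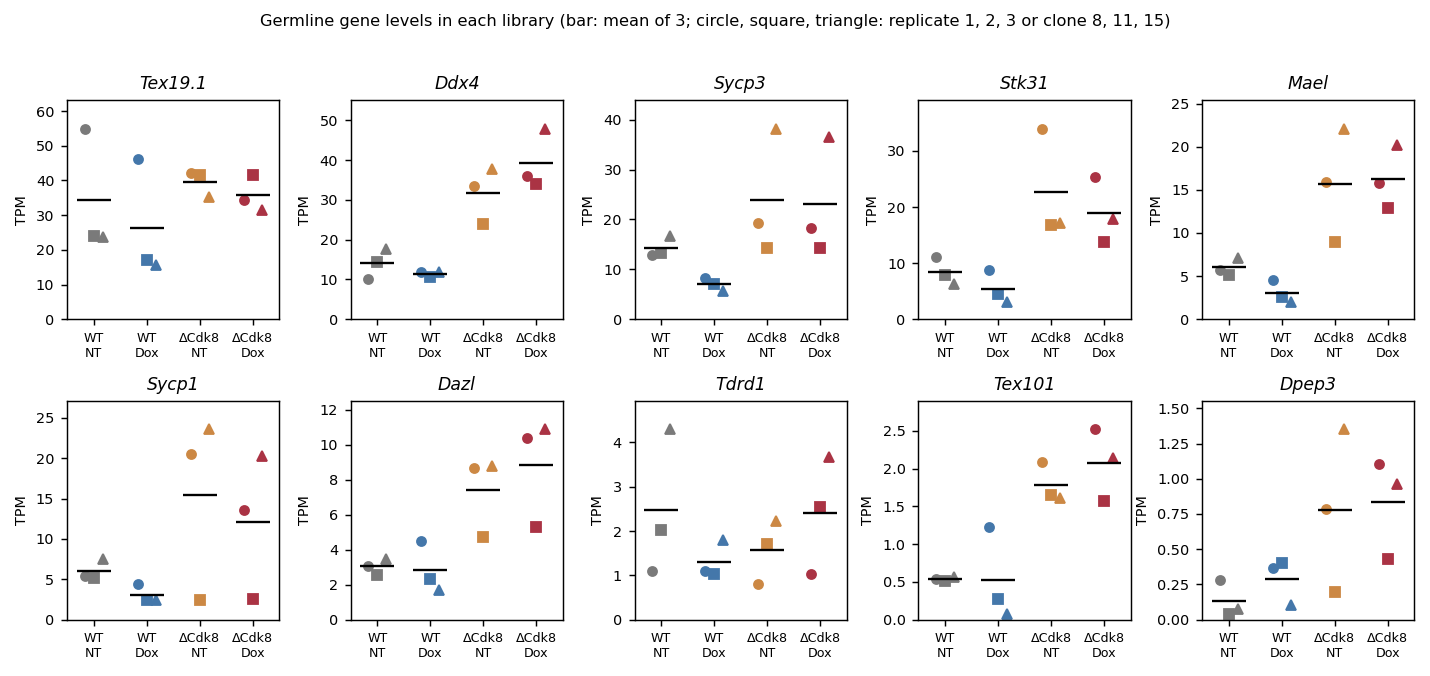
TPM (y axis, linear, a separate scale for each gene) of the 10 germline genes in each library, by group (x axis: WT and ΔCdk8, without (NT) and with (Dox) induced Xist). Each point is 1 library, the bar is the mean of 3, and circle, square and triangle are wild-type replicates 1, 2 and 3 or clones 8, 11 and 15; Ddx4, Stk31, Mael, Dazl and Tex101 have every uninduced clone above every uninduced wild-type library.

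The first comparison asks whether loss of Cdk8 alone went with other levels of these genes. In uninduced cells 8 of the 9 genes tested had a higher mean in ΔCdk8, with a median log2 fold change of 1.09 against 0.03 over all genes tested, and 5 were higher in every clone than in every wild-type library. No change passed the study's criteria of a fold over 2 and an adjusted p under 0.01 in edgeR's quasi-likelihood test, where 0 of 14646 genes passed (0%). At an unadjusted p under 0.05, 5 of the 9 germline genes were higher and 0 lower, and 11.9% of all genes were higher. DESeq2 also put 0 of 9 past the criteria, beside 1.80% of all genes called higher. At an adjusted p under 0.05 DESeq2 had 5 of the 9 higher, beside 5.51% of all genes.

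Ddx4, the helicase, had 10.1, 14.5 and 17.8 TPM in uninduced wild-type replicates 1 to 3 and 33.5, 24.1 and 37.8 in clones 8, 11 and 15. The groups do not overlap, and the log2 fold change was 1.00 ± 0.24 (SE; edgeR adjusted p = 0.143; DESeq2 adjusted p = 0.00974 with a fold just under 2). Dazl, the translational regulator, had 3.09, 2.54 and 3.48 TPM in wild type and 8.68, 4.71 and 8.77 in the clones. Clone 11 lay nearest to wild type, and the log2 fold change was 1.09 ± 0.30 (edgeR adjusted p = 0.155). Mael, the piRNA factor, had 5.76, 5.18 and 7.12 TPM in wild type against 15.9, 8.98 and 22.1 in the clones. Its log2 fold change was 1.16 ± 0.33 (edgeR adjusted p = 0.162), again with clone 11 the lowest of the clones.

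Stk31 had 11.04, 7.82 and 6.31 TPM in uninduced wild type and 33.9, 16.7 and 17.2 in clones 8, 11 and 15. Clone 8 stood highest, and the log2 fold change was 1.28 ± 0.35 (edgeR adjusted p = 0.154). Tex101, the surface glycoprotein, was low throughout, with 0.535, 0.516 and 0.567 TPM in wild type and 2.09, 1.65 and 1.61 in the clones. These levels rest on 11, 12 and 23 reads in wild type and 79, 50 and 44 in the clones, and its log2 fold change of 1.55 ± 0.40 (edgeR adjusted p = 0.150) was the highest of the 9. These 5 genes, Ddx4, Dazl, Mael, Stk31 and Tex101, were those with groups that do not overlap, beside 16.3% of all genes tested with every clone above every wild-type library.

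The synaptonemal genes split by clone. Sycp1, the transverse filament protein, had 5.41, 5.18 and 7.47 TPM in uninduced wild type, 20.5 and 23.6 in clones 8 and 15, and 2.39 in clone 11, below every wild-type library. Its log2 fold change was 1.18 ± 0.65 (edgeR adjusted p = 0.324). Sycp3, the axial element protein, had 12.9, 13.4 and 16.6 TPM in wild type and 19.4, 14.2 and 38.2 in the clones. The groups overlap through clone 11, and the log2 fold change was 0.59 ± 0.35 (edgeR adjusted p = 0.347). Sycp3 lies inside Chpt1 on the opposite strand, at 1.02 to 6.25 TPM, and whether counting used strand is not given in the sources used here. Reads across the exon junctions of Sycp3 itself gave 4.92, 6.06 and 7.26 RPM (scaled to total gene reads) in wild type and 7.60, 5.59 and 14.9 in clones 8, 11 and 15, the same order of clones.

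Tdrd1 and Tex19.1 did not share the higher level. Tdrd1, the Tudor scaffold of the piRNA pathway, had 1.09, 2.03 and 4.30 TPM in uninduced wild type and 0.801, 1.70 and 2.23 in the clones, with a log2 fold change of -0.79 ± 0.57 (edgeR adjusted p = 0.427). Tex19.1 had 54.9, 24.1 and 23.7 TPM in wild type and 42.0, 41.6 and 35.3 in the clones, with a log2 fold change of 0.06 ± 0.35 (edgeR adjusted p = 0.934). Wild-type replicate 1 stood above every clone and the other 2 replicates below every clone. Dpep3 was too low for the filter of edgeR (filterByExpr), with 0.285, 0.042 and 0.0754 TPM (7, 1 and 4 reads) in wild type and 0.786, 0.194 and 1.35 TPM (35, 10 and 38 reads) in the clones. Its groups overlap, with a two-sided exact permutation p of 0.20, where 0.10 is the smallest that 3 against 3 allows.

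**Figure D3:**
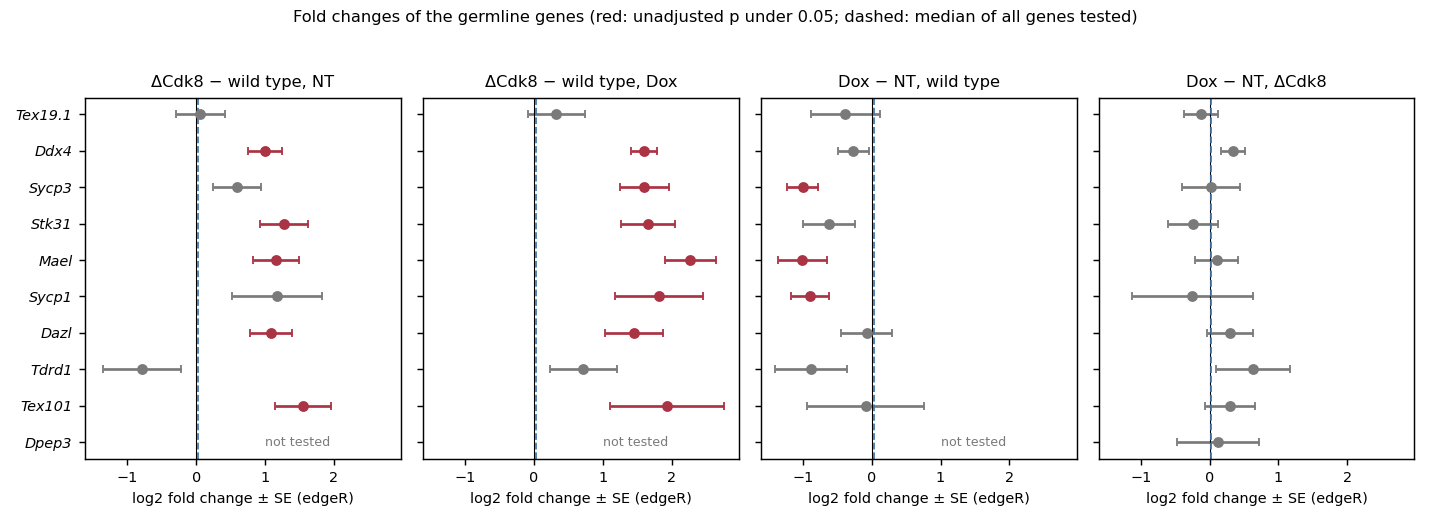
Log2 fold change from edgeR (x axis; points, with bars of 1 SE) of each germline gene (y axis, by mean level) for ΔCdk8 against wild type without (NT) and with (Dox) induced Xist and for Dox against NT in wild type and in ΔCdk8. Red points have an unadjusted p under 0.05 and the dashed line is the median of all genes tested; the red points lie at 1.00 to 2.28 in the genotype panels and between -1.01 and -0.89 in the wild-type induction panel.

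With Xist induced, the same comparison of genotypes gave wider differences. All 9 genes tested had a higher mean in ΔCdk8, with a median log2 fold change of 1.60 against 0.03 over all genes. Tex101 passed the low-count filter here through the clones, and without it the median of the other 8 was also 1.60. In edgeR 0 of 9 and 0 of 14143 genes (0%) passed the criteria, and at an unadjusted p under 0.05 edgeR had 6 of the 8 genes other than Tex101 higher against 14.9% of all genes. DESeq2 called 4 of the 9 higher, Ddx4, Mael, Stk31 and Sycp3, where it called 3.83% of all genes. The spread taken over all 12 libraries in edgeR left 2 of the 10 genes then tested, Ddx4 (adjusted p = 0.00370) and Mael (adjusted p = 0.00553), beside 0.727% of all genes called higher in that fit.

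Mael had 4.50, 2.62 and 1.99 TPM in induced wild type and 15.8, 12.9 and 20.2 in induced clones 8, 11 and 15. Every clone was above every wild-type library, with a log2 fold change of 2.28 ± 0.37 (edgeR adjusted p = 0.0534; DESeq2 adjusted p = 2.96e-07), the highest of the 9. Ddx4 had 11.8, 10.5 and 11.98 TPM in wild type and 35.9, 34.1 and 47.9 in the clones, with a log2 fold change of 1.60 ± 0.19 (edgeR adjusted p = 0.0526; DESeq2 adjusted p = 3.55e-12). Clone 11 was close to clone 8 here. Sycp3 had 8.26, 7.09 and 5.71 TPM in wild type and 18.4, 14.3 and 36.5 in the clones. Its groups no longer overlapped, and the log2 fold change was 1.60 ± 0.36 (edgeR adjusted p = 0.0656; DESeq2 adjusted p = 7.60e-04).

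Stk31 had 8.77, 4.59 and 3.02 TPM in induced wild type and 25.3, 13.8 and 17.8 in the clones, with a log2 fold change of 1.66 ± 0.39 (edgeR adjusted p = 0.0713; DESeq2 adjusted p = 0.00145). Dazl had 4.48, 2.31 and 1.68 TPM in wild type and 10.4, 5.27 and 10.9 in the clones, with a log2 fold change of 1.46 ± 0.42 (edgeR adjusted p = 0.0970; DESeq2 adjusted p = 0.0121). In both genes the groups were separate. Sycp1 had 4.38, 2.47 and 2.46 TPM in wild type and 13.6, 2.54 and 20.2 in the clones, with clone 11 at the wild-type level (log2 fold change 1.82 ± 0.64, edgeR adjusted p = 0.135). Tex101 had 1.22, 0.274 and 0.0719 TPM (26, 4 and 2 reads) in wild type and 2.52, 1.58 and 2.14 in the clones. Of the wild-type libraries 1 of 3 was above the cutoff of the filter, so its log2 fold change of 1.94 ± 0.83 (edgeR adjusted p = 0.190) is not support for a difference. Tdrd1 (0.72 ± 0.49) and Tex19.1 (0.33 ± 0.41) had edgeR adjusted p-values of 0.371 and 0.626. Leaving Tex101 aside, 5 of the other 8 tested had groups that do not overlap, Dazl, Ddx4, Mael, Sycp3 and Stk31, beside 18.6% of all genes tested. Tex101 and Dpep3, which was not tested, were also separate. Dpep3 had 0.367, 0.401 and 0.105 TPM (9, 6 and 3 reads) in wild type and 1.10, 0.433 and 0.960 TPM (46, 9 and 21 reads) in the clones. With so few reads its separation is not support for a difference.

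Within wild type, induction of Xist went with lower levels of several of the genes, which were autosomal in every case. The median log2 fold change of the 9 tested was -0.62 against 0.03 over all genes, and -0.75 without Tex101, which passed the low-count filter here through the uninduced libraries. In edgeR 0 of 9 passed the criteria, beside 162 of 14006 genes (1.16%), and at an unadjusted p under 0.05 edgeR had 3 lower and 0 higher, against 10.4% of all genes lower. DESeq2 called 1 of 9 lower, Sycp3 (adjusted p = 2.96e-04), where it called 3.14% of genes lower. Sycp3 had 12.9, 13.4 and 16.6 TPM before and 8.26, 7.09 and 5.71 after induction, with a log2 fold change of -1.004 ± 0.22 (edgeR adjusted p = 0.0580). Mael (-1.01 ± 0.35, edgeR adjusted p = 0.164) and Sycp1 (-0.89 ± 0.27, edgeR adjusted p = 0.124) also had every induced library below every uninduced one. These 3 of 9 stand beside 14.2% of all genes with such a separation downward.

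Replicate numbers paired the libraries, as same-numbered libraries deviated together, and the edgeR fit with the pair as a block put 4 of the 9 at an adjusted p under 0.05 downward, against 10.8% of all genes. These were Sycp3 (-1.01, adjusted p = 0.0228), Stk31 (-0.68, adjusted p = 0.0279), Tex19.1 (-0.42, adjusted p = 0.0312) and Sycp1 (-0.92, adjusted p = 0.0427), all by edgeR with the pair. Tex19.1 shows what the pairing did: its level was 54.9, 24.1 and 23.7 TPM before and 46.1, 17.2 and 15.6 after induction, lower in each pair although replicate 1 stood far above the others in both states. Ddx4 had a log2 fold change of -0.27, Dazl of -0.07 and Tex101 of -0.09. In each of these 3 genes pair 1 was higher and pairs 2 and 3 lower after induction. The Tex101 value averages 1.22 TPM in induced replicate 1 with 0.274 and 0.0719 in the others. The value ran from -1.84 to 0.50 when 1 wild-type replicate was left out. Pair 1 showed the least change overall. The median ratio of induced to uninduced TPM over the 10 genes was 0.917 in pair 1, with 6 of 10 below 1, and 0.559 and 0.449 in pairs 2 and 3, with 9 of 10 below 1 in each. The median over 12139 expressed genes was 0.973 to 1.01 in these pairs. Without replicate 1 the median log2 fold change of the 8 genes other than Tex101 was -0.96, and 7 of 8 were lower at an unadjusted p under 0.05 in edgeR, beside 20.1% of all genes in that fit. Without replicate 2 this was 1 of 8 beside 5.07%, and without replicate 3 it was 0 of 8 beside 4.80%.

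In ΔCdk8 the levels before and after induction were close. The median log2 fold change of the 10 genes was 0.12 against 0.01 over all genes, and each lay between -0.25 (Sycp1) and 0.63 (Tdrd1). In edgeR 0 of 10 and 0 of 14832 genes (0%) passed the criteria. The unadjusted edgeR p-values of the 10 ran from 0.0974 (Ddx4) to 0.973 (Sycp3). DESeq2 called 0 of 10, and nothing is drawn from that count, as its share over all genes is not given here. Sycp3 had 19.4, 14.2 and 38.2 TPM before and 18.4, 14.3 and 36.5 after induction in clones 8, 11 and 15, a wider spread between clones than within them. With the clone as a block, edgeR had 2 of 10 at an adjusted p under 0.05 upward, Ddx4 (0.34, adjusted p = 0.0136) and Tdrd1 (0.61, adjusted p = 0.0213), against 5.60% of all genes. Ddx4 was higher after induction in each clone, by ratios of 1.07, 1.42 and 1.27.

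**Figure D4:**
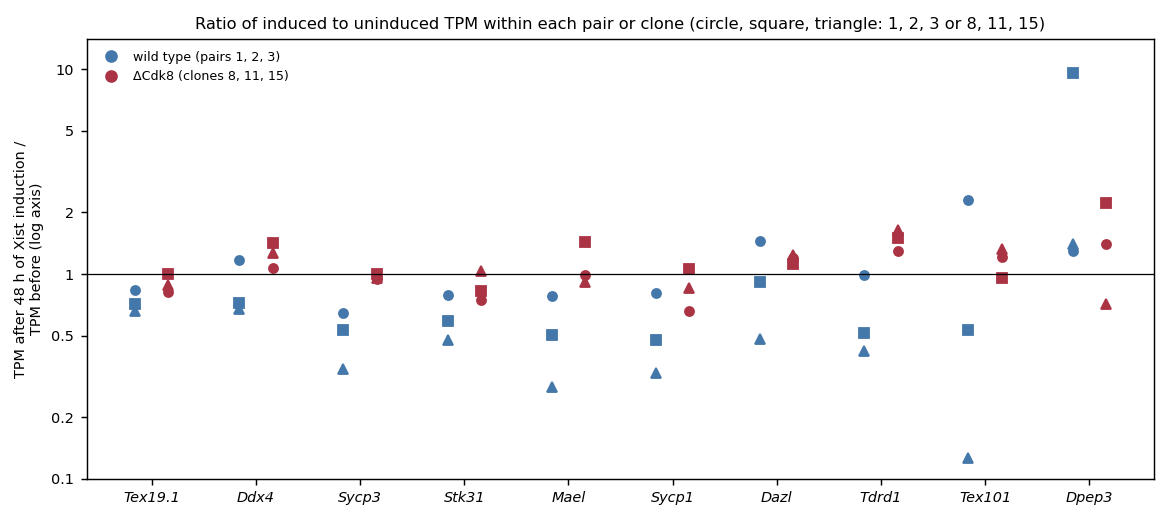
Ratio of TPM after 48 h of Xist induction to TPM before (y axis, log scale) for each germline gene (x axis), within wild-type pairs 1, 2 and 3 (blue) and ΔCdk8 clones 8, 11 and 15 (red); each point is 1 pair or clone, marked by circle, square and triangle in that order. For Sycp3, Mael and Tdrd1 the wild-type and ΔCdk8 points are separate; the wild-type ratios of Sycp3 are 0.642, 0.530 and 0.343 and the clone ratios 0.948, 1.00 and 0.956.

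The interaction of genotype and induction tests whether the response to Xist differed between genotypes. Its median over the 10 genes was 0.52 on the log2 scale against 0.00 over all genes. The median ran from 0.35 to 0.89 when 1 wild-type replicate or clone was left out, with 0.89 without wild-type replicate 1. Without Tex101 and Dpep3, which were too low in part of the groups to pass the filter there, the median of the other 8 was 0.64, with 8 of 8 above 0. In edgeR without pairs 0 of 10 and 0 of 15137 genes (0%) passed, and 1 of 10, Mael (1.14 ± 0.47, edgeR adjusted p = 1.00), had an unadjusted p under 0.05 upward, against 2.68% of all genes. With pairs, edgeR put Sycp3 (1.06 ± 0.22, adjusted p = 0.0234) and Tdrd1 (1.40 ± 0.30, adjusted p = 0.0283) at an adjusted p under 0.05, 2 of 10 against 3.55% of all genes. DESeq2 with pairs, an analysis chosen after seeing the data, called Sycp3 (1.04, adjusted p = 0.00166), Mael (1.22, adjusted p = 0.00976) and Tdrd1 (1.38, adjusted p = 0.00271), 3 of 10 against 1.53% of all genes. The Sycp3 ratio of induced to uninduced TPM was 0.505 ± 0.151 (SD, n = 3) in wild type and 0.969 ± 0.030 (SD, n = 3) in the clones. Mael had ratios of 0.522 ± 0.251 and 1.11 ± 0.279 (SD, n = 3 each). Tdrd1 had 0.994, 0.513 and 0.421 in the wild-type pairs and 1.301, 1.499 and 1.64 in clones 8, 11 and 15, on levels of 4.30 TPM or less.

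The clones were not alike. Clone 11 was the lowest of the 3 in 7 of the 10 germline genes without induction and in 8 of 10 with it, beside 53.8% and 46.8% of 12139 expressed genes. Sycp1 was at 3.40, 0.40 and 3.91 times the uninduced wild-type mean in clones 8, 11 and 15, and Dazl at 2.85, 1.55 and 2.89 times. Ddx4 was at 2.37, 1.70 and 2.68 times, and Tex101 at 3.88, 3.07 and 2.99 times. Without clone 11, and leaving aside Tex101 and Dpep3, whose low counts passed the filter mainly through the clones, edgeR had 6 of the other 8 germline genes higher at an unadjusted p under 0.05 in the uninduced comparison of genotypes, beside 18.2% of all genes in that fit, and 4 at an adjusted p under 0.05, beside 5.64%. In the induced comparison without clone 11, 6 of these 8 had an adjusted p under 0.05 in edgeR, beside 9.37% of all genes, and in both comparisons 0 passed the criteria.

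Whole chromosomes also differed between clones, which among the 10 genes touches Sycp1 on chromosome 3 and Stk31 on chromosome 6. Relative to all genes, the median gene of chromosome 3 was at 1.42 times wild type in uninduced clone 8 and 1.55 in clone 15, but 0.99 in clone 11. The median gene of chromosome 6 was at 0.68 in clone 11, 1.00 in clone 8 and 0.91 in clone 15. Before that scaling the chromosome 3 medians were 1.58 and 1.81 times wild type in clones 8 and 15, and divided by them Sycp1 was at 2.16 times wild type in both clones. Divided in the same way, Sycp1 was at 0.40 times in clone 11 and Stk31 at 2.96 times in clone 11. Chromosome 14, which holds none of the 10 genes, was at 1.40 to 1.55 in every clone. In the wild-type libraries the medians of the autosomes lay between 0.93 and 1.06. The part of these shifts in the results was not tested.

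**Figure D5:**
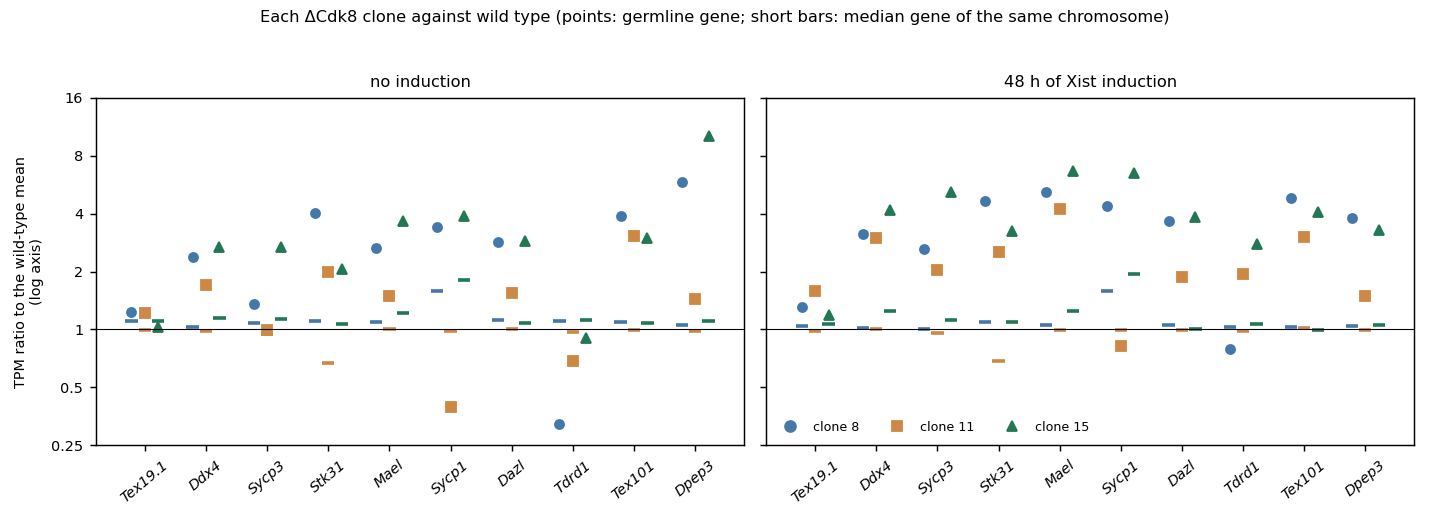
TPM of each germline gene (x axis) in clones 8 (circle), 11 (square) and 15 (triangle) as a ratio to the wild-type mean of the same state (y axis, log scale), without and with 48 h of Xist induction; short bars give the median ratio of the genes on the same chromosome in that clone. Sycp1 in clone 11 lies at 0.40 and 0.82, below the wild-type mean, and its chromosome bar is raised in clones 8 and 15.

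Other germline genes, listed by function, had median log2 fold changes above 0 in uninduced ΔCdk8, but none passed the criteria in edgeR. Among meiosis genes 13 of 23 tested were higher and 0 lower at an unadjusted p under 0.05 in uninduced cells (edgeR, median log2 fold change 0.89, 0 past the criteria; DESeq2 called 2, Rec8 and Tex11). Over all genes the shares higher were 11.9% by this rule and 1.80% called by DESeq2. The piRNA pathway had 5 of 17 higher and 0 lower (median 0.95, with Gpat2, Piwil2 and Rnf17 called by DESeq2). A list of other germline genes had 6 of 16 and 0 (median 0.92, with Tex13b and Zcwpw1 called by DESeq2). Tex13b was at 17.5, 5.57 and 14.2 times the wild-type mean in clones 8, 11 and 15. Its wild-type level was low, so its call is not support for a difference. Piwil2, a Piwi protein, had 11.4, 5.32 and 5.86 TPM in wild type and 25.9, 36.4 and 28.8 in clones 8, 11 and 15, so here clone 11 was the highest. Rnf17, a Tudor protein, had 22.5, 21.5 and 17.4 TPM against 51.0, 54.4 and 55.0. Gpat2 had 1.87, 0.922 and 0.601 TPM against 6.11, 3.71 and 3.99. Some genes of the piRNA list were below the wild-type mean in every clone, such as Tdrd5 at 0.57, 0.60 and 0.86 times and Henmt1 at 0.65, 0.47 and 0.91 times the wild-type mean in clones 8, 11 and 15. Piwil2, Rnf17 and Rec8 lie on chromosome 14, whose median gene was at 1.40, 1.498 and 1.54 times wild type in uninduced clones 8, 11 and 15 relative to all genes, and their own ratios were 2.35 or more in each clone. Its part in their levels was not tested.

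Rec8, the meiotic cohesin subunit, had 6.23, 8.94 and 8.05 TPM in uninduced wild type against 28.6, 18.2 and 34.4 in the clones. Smc1b, another meiotic cohesin subunit, split as Sycp1 did, at 2.86, 1.27 and 0.548 TPM in wild type, 28.3 and 50.2 in clones 8 and 15 and 1.48 in clone 11. Sohlh2, a transcription factor of early germ cells, had 7.19, 7.54 and 5.69 TPM in wild type and 36.8, 4.73 and 48.4 in the clones. Sohlh2 and Slc25a31 lie on chromosome 3, which was at 1.42 and 1.55 in clones 8 and 15, and Stra8, Asz1 and Tuba3a on chromosome 6, which was at 0.68 in clone 11. The other genes of widest difference in these lists had log2 fold changes of 2.79 (Stra8) and 2.08 (Terb1) in meiosis, 1.68 (Tdrd7) and 1.53 (Asz1) in the piRNA pathway, and 1.90 (Slc25a31) and 1.14 (Tuba3a) among other germline genes, with edgeR adjusted p-values of 0.164 to 0.358. Clone 11 was the lowest clone in 22 of 25 meiosis genes, 15 of 17 other germline genes and 9 of 18 piRNA genes without induction, beside 53.8% of expressed genes. With Xist induced this was 17 of 25, 13 of 17 and 8 of 18, beside 46.8%. Tex11, an X-linked meiosis gene and therefore on the chromosome that Xist acts on, fell in induced wild type (log2 fold change -2.95 ± 0.34, adjusted p = 0.00657), from 3.29, 5.998 and 3.93 to 0.495, 0.344 and 0.230 TPM. With the pair as a block in edgeR, Meioc and the X-linked Usp26 passed there beside Tex11, where 2.48% of all genes were called lower. In ΔCdk8 induction the same fit called Tex11, Meiob, Tex13b and Usp26 lower, beside 1.27% of all genes. Meiob had 1.12, 0.483 and 0.874 TPM in uninduced clones 8, 11 and 15 and 0.175, 0.0480 and 0.113 after induction. Meiob and Tex13b were low, so their calls are not support for a difference. DESeq2 without pairs called Tex11 and Usp26, and its share over all genes is not given here. In edgeR without pairs none of them was called (adjusted p = 0.506 for Tex11). The induced to uninduced TPM ratio of Tex11 was 0.089 ± 0.053 in wild type and 0.442 ± 0.031 in the clones (SD, n = 3 each). With the spread of all 12 libraries Tex16, another X-linked gene, was called lower on induction in wild type too. Its ratio of induced to uninduced TPM was 0 in every wild-type pair. In that fit Tex11 passed between uninduced genotypes. The shares of all genes for these 2 calls are not given here. Between induced genotypes Tex11, Rec8 and Rnf17 passed, beside 0.727% of all genes called higher. With Xist induced, DESeq2 called 6 of 21 meiosis, 5 of 17 piRNA and 5 of 14 other germline genes higher in ΔCdk8, beside 3.83% of all genes, where edgeR called 0 of each and had 13, 8 and 9 higher at an unadjusted p under 0.05, beside 14.9% of all genes. Late spermatid genes were too low to test, with a sum of 10 genes of at most 1.29 TPM in any library.

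Genes that write and erase methylation were measured in the same libraries. Dnmt3b, a de novo methyltransferase, had 548, 815 and 997 TPM in uninduced wild type and 295, 310 and 277 in clones 8, 11 and 15 (log2 fold change -1.54 ± 0.23; edgeR adjusted p = 0.110; DESeq2 adjusted p = 1.77e-06). Dnmt3a, the other one, had 94.5, 116 and 131 TPM against 31.9, 65.0 and 49.2 (-1.35 ± 0.30; edgeR adjusted p = 0.130; DESeq2 adjusted p = 0.00198). Both had every clone below every wild-type library, 2 of the 8 genes of this list. The share of all genes with such a separation downward is not given here. With Xist induced the log2 fold changes were -0.96 and -1.12 (edgeR adjusted p = 0.0774 and 0.109). On induction in wild type, where Sycp3, Mael and Sycp1 were lower, Dnmt3b was also lower in every pair, at 0.619 ± 0.017 times its uninduced TPM (SD, n = 3), and Dnmt3a was at 1.07 ± 0.093 times (SD, n = 3). The other 6 genes of the list had uninduced log2 fold changes between -0.45 and 0.54: Dnmt3l -0.24, Dnmt1 -0.26, Uhrf1 -0.19, Tet1 -0.32, Tet2 0.54 and Tet3 -0.45, each with an unadjusted edgeR p over 0.05. Of 18 repressors of germline genes, 3 were lower at an unadjusted p under 0.05 and 0 higher (edgeR, median -0.15; 0 called by edgeR or DESeq2), beside 8.49% of all genes lower. The repressors with the widest differences were Cbx3 at -0.60, Tfdp1 at -0.49, Ehmt1 at -0.35 and Kdm5c at -0.32.

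Markers of cell state moved with the groups too. The 6 markers of primed epiblast (Fgf5, Otx2, Pou3f1, Lef1, Pim2 and Dnmt3b, the last also on the methylation list) summed to 805 to 1882 TPM in uninduced wild type, 403 to 804 in induced wild type, 345 to 436 in uninduced and 299 to 326 in induced ΔCdk8. In uninduced cells all 6 were lower in ΔCdk8 at an unadjusted p under 0.05 (edgeR, median log2 fold change -2.55; DESeq2 called 6), beside 8.49% of all genes lower in edgeR and 0.833% called lower by DESeq2. In wild-type induction 4 of 6 were lower (edgeR, median -1.70), beside 10.4% of all genes lower. Pluripotency markers summed to 3367 to 6370 TPM in uninduced wild type and 4129 to 7021 in uninduced clones. Dppa5a made up 1651 to 4558 and 2522 to 4705 TPM of these sums. At an unadjusted p under 0.05, 2 of 8, Nanog and Tfcp2l1, were higher (edgeR), beside 11.9% of all genes. In 5 of 8 every uninduced clone lay above every uninduced wild-type library, beside 16.3% of all genes tested. In wild-type induction their mean ratios of induced to uninduced TPM ran from 0.97 ± 0.11 (Pou5f1) to 3.96 ± 2.26 (Esrrb) (SD, n = 3). The 8 markers of primordial germ cells summed to 478 to 632 and 397 to 628 TPM, which overlap. Of these, 1, Prdm14, was higher at an unadjusted p under 0.05 (edgeR), beside 11.9% of all genes. Separate groups were found in 1 of 8, beside 16.3% of all genes tested. This was Dnd1, at 9.71, 12.7 and 9.94 TPM in wild type and 21.5, 13.9 and 14.2 in clones 8, 11 and 15. Tfap2c was at 3.18, 1.01 and 2.28 times the wild-type mean in these clones, and Dppa3 at 0.95, 0.34 and 0.71 times. Prdm1, Nanos3, Kit and Ifitm3 lay on both sides of it.

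Markers of the rare two-cell-like state in ESC cultures, such as Zscan4c, summed to 0.106 to 1.51 TPM in uninduced wild type and 0.516 to 15.4 in the clones, and clone 11 was the lowest clone in all 6. Fibroblast markers summed to 8.87 to 17.7 TPM in uninduced wild type and 19.6 to 29.8 in the clones, most of it Thy1 at 8.32 to 16.1 and 10.6 to 28.7 TPM, which overlap. Pdgfrb was higher at an unadjusted p under 0.05 (edgeR, 1 of 5 tested), beside 11.9% of all genes. Col3a1 was at 0.25, 0.31 and 1.66 times and Col1a2 at 0.52, 0.25 and 11.4 times the wild-type mean in clones 8, 11 and 15. Primitive endoderm markers summed to 6.11 to 7.55 and 5.68 to 11.4 TPM, with Gata4 higher in the same way (1 of 5), beside 11.9% of all genes. Gata6, Sox17, Sox7, Pdgfra and Dab2 each lay on both sides of the wild-type mean. Sox7, for example, was at 0.34, 1.75 and 0.25 times in uninduced clones 8, 11 and 15. The part of these cell states in the germline gene levels was not tested.

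The genes whose levels ran most alike were sought for the 3 germline genes of highest mean level, over log2(TPM + 1) in the 12 libraries, which share 4 groups, and among 12131 other expressed genes. For Ddx4 they were Cmtm7 (r = 0.969), Entpd4 (0.963) and Col7a1 (0.962), with Mael (0.934) and Dazl (0.895) closest among the germline genes. For Sycp3 they were Bicc1 (0.978), Mak (0.971) and Serp1 (0.965), with Mael again the closest germline gene (0.927). For Tex19.1 they were Pramef12 (0.953), mt-Co1 (0.951) and Mtf2 (0.942), and its r with the other germline genes ran from -0.250 (Tdrd1) to 0.705 (Stk31). Tex19.1 thus followed a pattern apart from Ddx4, with its highest level in wild-type replicate 1.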

How the data were processed

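Polyadenylated RNA of 12 ESC libraries was sequenced (stranded TruSeq kit, single-end reads), and the authors mapped and counted reads in CLC Genomics Workbench with the Ensembl annotation of GRCm38. The deposited values used here are counts of reads per gene, with exon and exon-junction counts beside them, and TPM per gene as the authors computed it; deposited RPKM columns and the deposited share of intron reads per gene were not used. Whether counting used strand is not given in the sources used here. Members and gene lists were chosen with earlier results of these data known.

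Gene read counts were tested with edgeR 4.0.16 (quasi-likelihood F-test, TMM scaling, filterByExpr with a minimum count of 10) in each of 4 comparisons of 2 groups and in an interaction fit over 12 libraries, each adjusted by Benjamini-Hochberg over all genes that passed the filter. The criteria were a fold over 2 and an adjusted p under 0.01, as in the study. DESeq2 1.42.0, other filters, other counts, a shared spread, pair blocks and leaving out each wild-type replicate or clone were the alternatives. Fits were tested on simulated data. Deviations from group means correlated between same-numbered libraries at 0.602 to 0.711 in wild type and 0.873 to 0.924 in ΔCdk8, and between other libraries at most at 0.433 and 0.0466, so the numbers pair the samples, in ΔCdk8 by clone. No pair of libraries was identical. Total gene reads of 22170087 to 60798578 per library limit precision mainly for Tex101 and Dpep3.

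The genes named by rule are the 10 members, list genes past the criteria and up to 4 genes of widest difference per list. The rule also takes all methylation genes, the genes most alike in pattern, and Cdk8. Sohlh2 and Smc1b stand for their lists by this rule. Other list genes are named outside it to show the spread within a list, such as Tdrd5, Henmt1, Thy1, Col3a1, Dnd1 and Dppa3. Chromosome medians used 12139 genes with a mean of at least 1 TPM. Motifs were searched in RefSeq promoter windows of GRCm38.p6, matched by symbol for 10 of 10 genes.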

Additional observations from a re-analysis of the deposited data

Results flagged for a closer look

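Tests of the interaction drew attention to 3 of the 10 genes, because the effect of Xist induction differed between wild type and ΔCdk8 in 1 or both of the fits with pairs; DESeq2 with pairs was chosen after seeing the data. Sycp3 had an interaction of 1.06 on the log2 scale in edgeR with pairs (adjusted p = 0.0234) and of 1.04 in DESeq2 with pairs (adjusted p = 0.00166). Mael had 1.22 in DESeq2 with pairs (adjusted p = 0.00976), while in edgeR with pairs its adjusted p of 0.0674 was over 0.05. Tdrd1 had 1.40 in edgeR with pairs (adjusted p = 0.0283) and 1.38 in DESeq2 with pairs (adjusted p = 0.00271). For Tdrd1 every wild-type pair also had a ratio of induced to uninduced TPM under 1, with a mean of 0.643, and every clone a ratio over 1. Without pairs the edgeR adjusted p of each of these interactions was 1.00.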

How the results depend on the processing

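In edgeR the count of germline genes past the criteria was 0 in all 5 comparisons, and it was 0 whichever replicate or clone was left out. It moved in the induced comparison of genotypes to 4 with DESeq2 and to 2 with the spread of all 12 libraries, in wild-type induction to 1 with DESeq2 with or without pairs, and in the interaction to 3 with DESeq2 and the pair block, which was chosen after seeing the data. With the replicate block in edgeR the counts past the criteria remained 0 in wild-type induction, ΔCdk8 induction and the interaction. Leaving out each wild-type replicate or clone gave median log2 fold changes of 0.88 to 1.32 for uninduced and 1.36 to 1.82 for induced genotypes. The medians were -1.10 to -0.54 for induction in wild type and 0.014 to 0.21 in ΔCdk8 (0.014 without clone 11 and 0.21 without clone 15). For the interaction the range was 0.35 to 0.89, with 0.89 without wild-type replicate 1. Library size scaling without TMM moved the median of all genes to 0.15 in both comparisons of genotypes. Directions turned in genes near 0. Leaving out each replicate or clone, Tex19.1 between uninduced genotypes ran from -0.16 to 0.58 (below 0 without wild-type replicate 2, replicate 3 or clone 11). In wild-type induction Dazl ran from -0.53 to 0.26 (above 0 without replicate 3) and Tex101 from -1.84 to 0.50 (above 0 without replicate 2 or 3). In ΔCdk8 induction Sycp3 ran from -0.018 to 0.029 (below 0 without clone 11), Mael from -0.052 to 0.24 (below 0 without clone 11) and Dpep3 from -0.060 to 0.39 (below 0 without clone 8), and Sycp3 was at -0.014 with exon reads and -0.0018 with library size scaling. The interaction of Tex101 ran from -0.19 to 2.07 (below 0 without wild-type replicate 3). The causes were not tested. Tex101 and Dpep3 rest on few reads, so their differences are the least certain.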
